A study of Mus musculus with 27 samples.

Results

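The surface antigens used to sort or recognise mouse skeletal stem cells were followed through 9 of the 30153 genes in the table: Cd200, Eng, Ptprc, Thy1, Enpep, Pdpn, Ly6a, Nt5e and Mcam. They were chosen by name, as the genes of the antigens in the sort (CD200, CD105 and CD45) and of antigens used elsewhere for skeletal stem and stromal cells (CD90, 6C3, podoplanin, Sca-1, CD73 and CD146). RNA was sequenced from cells of the hindlimb of Prx1-CreER/Ai14/Rag1 mice, in which tamoxifen-induced Cre from the Prx1 promoter switches on tdTomato in Prx1 cells and in their progeny. The mice were of both sexes and 8 to 12 weeks old, carried a mutant Rag1, received 2 doses of tamoxifen and were harvested 3 days after the last dose. Every group therefore shares the Rag1 mutation, the reporter and the tamoxifen, and there was no group without them. Live tdTomato+ CD45- cells were split by sorting into P3, which carried CD105 with variable CD200, and the CD105- cells, which formed P1 where CD200 was present and P2 where it was absent. They came from bone marrow flushed out of femur and tibia, from enzyme-digested periosteum and from enzyme-digested muscle, which was digested for longer. Each of the 9 groups had 3 libraries, and the tissues and subpopulations were taken from shared animals, though which animal gave which library is not stated, so the p-values treat libraries as independent and measure the spread between them, which may in part be technical.

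In mouse long bone, the combination of CD200 with an absence of CD105, CD45, Thy1 and 6C3 has been used to enrich skeletal stem cells, and gain of CD105, Thy1 or 6C3 has been used to mark more restricted progenitors. CD105, or endoglin, is a co-receptor of the TGF-beta and BMP pathway that is abundant on endothelium. CD200 is a glycoprotein that restrains myeloid cells through its receptor, CD45 is the tyrosine phosphatase of nucleated blood cells, and Sca-1 marks haematopoietic progenitors, endothelium and fibro-adipogenic stromal cells. None of these antigens belongs to one cell type alone.

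Values are the deposited normalized counts, and fold changes are on the log2(normalized count + 1) scale, which understates the change of genes near 0. A gene passed the test where limma gave an adjusted p under 0.05 and an absolute log2 fold change over 1.5. The 27 libraries summed to between 8631881 and 26230908 normalized counts and held 12396 to 21675 genes above 0. Replicates were most alike in muscle P3, with r from 0.947 to 0.955 across genes, and least alike in periosteum P2, with r from 0.631 to 0.672. Prrx1, the gene of Prx1, was present in every library, from 64 in replicate 2 of periosteum P2 to 4578 in replicate 1 of periosteum P1. It stood at 69 to 170.3 in bone marrow P2, at 1674 to 2413 in bone marrow P1 and at 64 to 2377 in periosteum P2. Transcripts of other cell types moved with the groups. The 9 erythroid genes measured held 46.9% of the summed counts in bone marrow P2 and 33.7% in periosteum P2, and 7 muscle fibre genes held 9.63% in muscle P2. Since the values are scaled within a library, fewer cells of a type and less RNA per cell cannot be told apart.

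All 9 markers passed the filter on low values, as did 18442 of the 30153 genes. Within bone marrow, 2 of the 9 passed between P1 and P2, where 34.0% of all genes tested did, 5 between P1 and P3 against 6.60%, and 4 between P2 and P3 against 20.0%. In periosteum the counts were 4 for P1 against P2, with 19.1% of all genes, 2 for P1 against P3, with 4.18%, and 5 for P2 against P3, with 17.1%. Muscle gave 2 for P1 against P2, with 8.21% of all genes, 0 for P1 against P3, with 0.466%, and 3 for P2 against P3, with 11.2%. Between P1 and P2 of bone marrow the share of markers was below that of all genes, and in the other comparisons with a call it was above. Cd200 and Eng account for 12 of these 27 calls, and since their products set the gates, these calls describe the sort. For muscle P1 against P3, 1 of the 9 markers, Eng, had an unadjusted p under 0.05 in limma.

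Between tissues, with the same gate on either side, 6 of the 9 markers passed for muscle P1 against bone marrow P1, against 8.34% of all genes, 4 for periosteum P1 against bone marrow P1, against 4.87%, and 1 for muscle P1 against periosteum P1, against 4.90%. Among P2 cells the counts were 4 for muscle against bone marrow, with 40.1% of all genes, 4 for periosteum against bone marrow, with 20.0%, and 3 for muscle against periosteum, with 28.0%. Among P3 cells they were 4, with 10.4%, then 3, with 6.94%, and 0 for muscle against periosteum, with 3.50%. In that last comparison 1 of the 9, Enpep, had an unadjusted p under 0.05 in limma. The test of whether the differences between subpopulations changed with the tissue was passed by 3 of the 9, where 25.5% of all genes passed it. For muscle P2 against bone marrow P2, for muscle P2 against periosteum P2 and for the interaction, the share of markers was near that of all genes. In each subpopulation fewer markers passed between muscle and periosteum than between either of them and bone marrow. These comparisons share groups, so their counts are not independent.

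**Figure D1:**
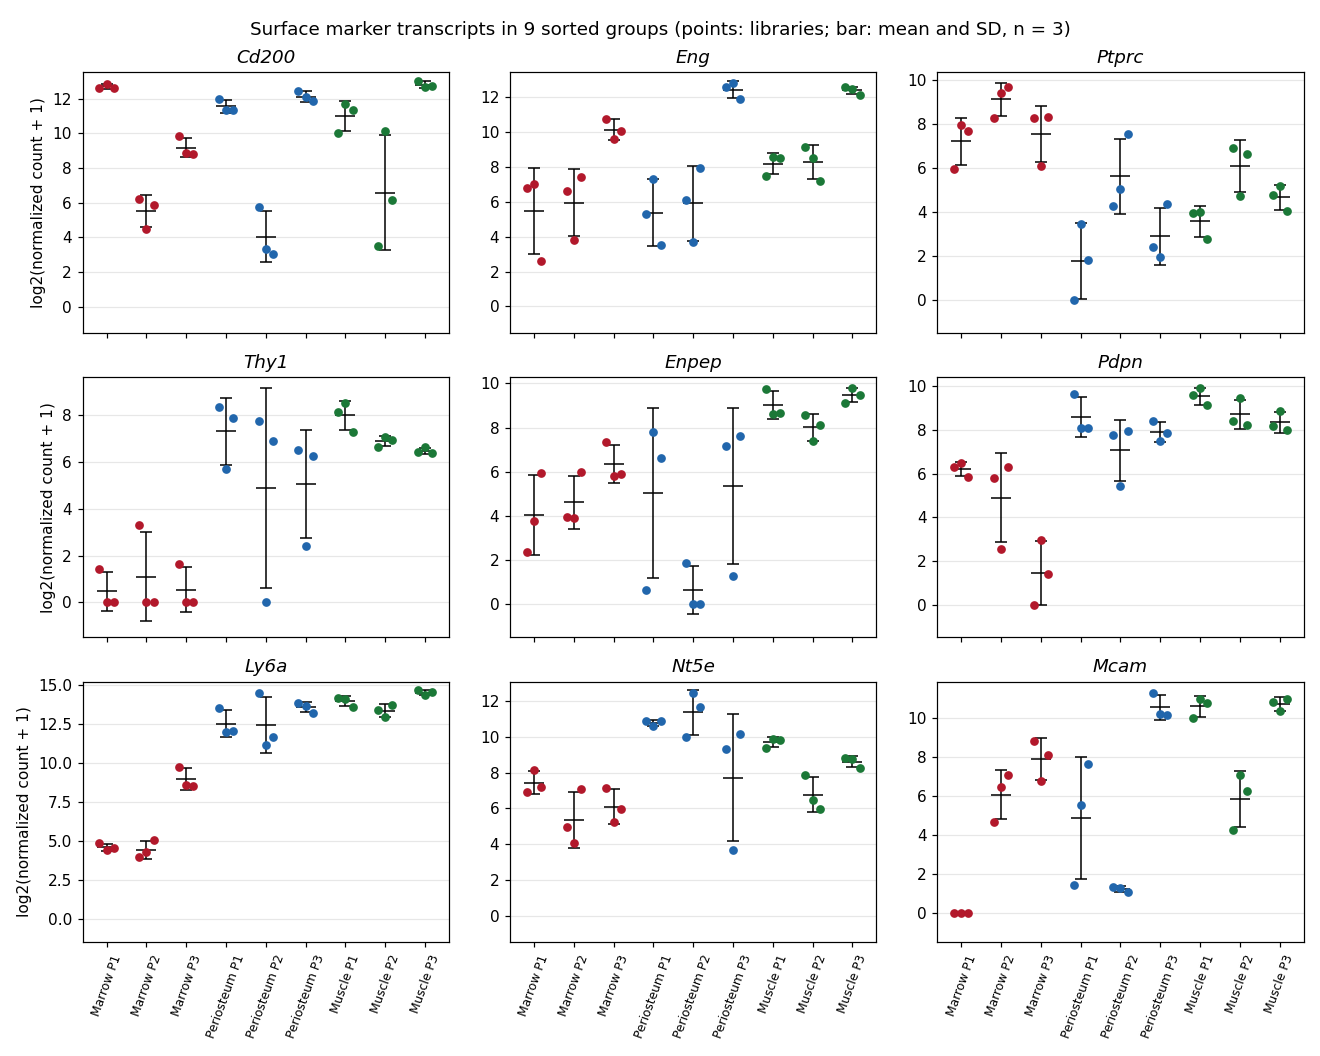
Each panel shows 1 marker gene as log2(normalized count + 1) in the 27 libraries, with the 9 sorted groups along the x axis, 1 point per library, and the mean and SD of each group of 3 as bars. Ly6a, Thy1 and Pdpn sit lowest in the bone marrow groups, while Cd200 and Eng follow the gates and Mcam separates groups within each tissue.

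Cd200 (ENSMUSG00000022661, chr16:45382135-45409053 in GRCm38, minus strand, protein coding) was the transcript of the antigen that defines P1. In bone marrow it stood at 6346, 7515 and 6315 in the 3 P1 libraries, 72.6, 21.1 and 56.3 in P2 and 905, 473 and 451 in P3. Periosteum gave 3972, 2614 and 2607 in P1, 52.8, 9.08 and 7.24 in P2 and 5554, 4326 and 3700.4 in P3. The transcript was thus low where the antigen was gated out, and P3, with variable CD200 protein, was below P1 in bone marrow and overlapped P1 in periosteum. Muscle held 1025, 3274 and 2560.4 in P1, 10.3, 1107 and 69.5 in P2 and 8339.8, 6525 and 6947 in P3. Replicate 2 of muscle P2 lay above the lowest P1 library, although its gate excludes CD200, while the other two were far below it.

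P1 was 148-fold higher than P2 in bone marrow (log2 fold change 7.21 ± 0.99 (SE), adjusted p = 6.3e-06), 182-fold higher in periosteum (log2 fold change 7.51 ± 0.99 (SE), adjusted p = 7.08e-06) and 21.4-fold higher in muscle (log2 fold change 4.42 ± 0.99 (SE), adjusted p = 0.00462). What the gate does not fix is the tissue and the level in P3. Among the P1 groups no tissue pair passed the test. Muscle P3 was 12.5-fold higher than bone marrow P3 (log2 fold change 3.64 ± 0.99 (SE), adjusted p = 0.0154) without overlap, a call that ended without replicate 2 or 3 of bone marrow P3 or replicate 1 of muscle P3 (adjusted p up to 0.0665). The muscle difference of P1 and P2, and that of P2 and P3 in periosteum, were not called with the 2 groups fitted alone. Periosteum P3 also lay above bone marrow P3 in each library but missed the threshold (log2 fold change 2.95 ± 0.99 (SE), adjusted p = 0.0711). The interaction of tissue and subpopulation passed (adjusted p = 0.0194). Bone marrow P1 was 11.6-fold higher than P3 (log2 fold change 3.53 ± 0.99 (SE), adjusted p = 0.0269), and this call was lost without any 1 of its P1 libraries and without replicate 2 or 3 of P3 (adjusted p up to 0.111), as it was with equal totals per library. In muscle the value was below 0 and did not pass (log2 fold change -1.82 ± 0.99 (SE), adjusted p = 0.954), as in periosteum (log2 fold change -0.57 ± 0.99 (SE), adjusted p = 0.87). In order of mean level, muscle P3 and bone marrow P1 came first and overlapped each other, then periosteum P3, periosteum P1 and muscle P1, each overlapping the next, and then bone marrow P3 and the P2 groups. For Cd200, the fold of 4 called differences moved by over 1.5 times when 1 library was left out, given here as log2 fold changes. Periosteum P1 against P2 had 8.36 without periosteum P2 replicate 1, while periosteum P2 against P3 had -8.94 without periosteum P2 replicate 1. Muscle P1 against P2 had 2.87 without muscle P2 replicate 1 and 6.18 without muscle P2 replicate 2, while muscle P2 against P3 had -4.69 without muscle P2 replicate 1 and -8.001 without muscle P2 replicate 2.

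Eng (ENSMUSG00000026814, chr2:32646595-32682669, plus strand, protein coding) encodes endoglin, the antigen that defines P3. Its 3′ end overlaps Fpgs on the other strand, and the strand setting of the read counting is not given in the sources used here, so reads there cannot be told apart. The 3 bone marrow P3 libraries held 1739.5, 774 and 1072, against 111, 129 and 5.18 in P1 and 97.4, 13.1 and 173 in P2. Periosteum P3 held 6206, 7328 and 3763, with 38.7, 159 and 10.4 in P1 and 66.7, 11.8 and 249 in P2. In each tissue the P3 libraries lay above the P1 and P2 libraries without overlap. Muscle P3 held 6067, 5621 and 4523, with 178, 382 and 367 in P1 and 569, 364 and 146 in P2.

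The levels of Eng outside P3 were not 0, and muscle P1 libraries ran from 178 to 382, above the 3 periosteum P1 libraries. P1 was below P3 by 25.3-fold in bone marrow (log2 fold change -4.66 ± 1.14 (SE), adjusted p = 0.0109) and 133-fold in periosteum (log2 fold change -7.05 ± 1.14 (SE), adjusted p = 0.000384), and in muscle the difference missed the adjusted threshold (log2 fold change -4.19 ± 1.14 (SE), adjusted p = 0.119). P2 was below P3 by 18.2-fold in bone marrow (log2 fold change -4.18 ± 1.14 (SE), adjusted p = 0.012), 92.4-fold in periosteum (log2 fold change -6.53 ± 1.14 (SE), adjusted p = 0.000361) and 17.1-fold in muscle (log2 fold change -4.10 ± 1.14 (SE), adjusted p = 0.0183). The bone marrow calls ended without replicate 3 of P1 (adjusted p up to 0.104) and without replicate 2 of P2 (up to 0.0625), and the muscle call without replicate 3 of P2 or replicate 1 or 2 of P3 (up to 0.085). With the 2 groups fitted alone, the P1 call of bone marrow and both calls of periosteum were lost. P1 and P2, which share the CD105- gate, overlapped in the 3 tissues, with intervals for the log2 difference of -2.84 to 1.88 in bone marrow, -2.88 to 1.84 in periosteum and -2.45 to 2.27 in muscle. No tissue pair passed for Eng. Bone marrow P3 was the next highest group, below the lowest muscle P3 and periosteum P3 library, while periosteum P3 and muscle P3 overlapped at the top. For Eng, the fold of 4 called differences moved by over 1.5 times when 1 library was left out, given here as log2 fold changes. Bone marrow P1 against P3 had -5.32 without bone marrow P1 replicate 1, -5.43 without bone marrow P1 replicate 2 and -3.23 without bone marrow P1 replicate 3, while bone marrow P2 against P3 had -3.11 without bone marrow P2 replicate 2 and -4.93 without bone marrow P2 replicate 3. Periosteum P1 against P3 had -8.02 without periosteum P1 replicate 2 and -6.12 without periosteum P1 replicate 3, while periosteum P2 against P3 had -5.42 without periosteum P2 replicate 2 and -7.56 without periosteum P2 replicate 3.

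Cd200 and Eng, whose products split the 3 subpopulations, were the markers for which the stretch before the start site is shown. These are the 250 bases upstream of the RefSeq start (build GRCm38.p6), read 5′ to 3′ on the strand of the gene, which for Cd200 is chr16:45409054-45409303 and for Eng chr2:32646345-32646594. Capitals mark exact matches on either strand to one of 4 motifs. The ETS-type motif was searched as AGGAAG and the GC box as GGGCGG. The RUNX-type motif was searched as TGTGGT and the TATA box as TATAAA.
Cd200: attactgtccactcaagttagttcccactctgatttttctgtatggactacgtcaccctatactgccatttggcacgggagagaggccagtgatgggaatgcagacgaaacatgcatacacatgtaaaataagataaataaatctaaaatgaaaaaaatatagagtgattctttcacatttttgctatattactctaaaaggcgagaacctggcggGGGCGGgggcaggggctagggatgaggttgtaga
Eng: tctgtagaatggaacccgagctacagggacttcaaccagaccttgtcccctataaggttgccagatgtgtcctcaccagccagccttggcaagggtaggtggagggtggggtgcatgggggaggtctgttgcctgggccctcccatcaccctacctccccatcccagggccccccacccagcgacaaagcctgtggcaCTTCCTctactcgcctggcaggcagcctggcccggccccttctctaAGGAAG
The Cd200 stretch held 1 GC box and no other match, and the Eng stretch held 2 ETS-type matches and no other. Of 32851 RefSeq promoters, 29.5% held an ETS-type match in the same window, 32.7% a GC box, 14.0% a RUNX-type match and 12.4% a TATA box. The share of G and C was 62.4% for Eng and 42.4% for Cd200. The table held promoters for 7 of the 9 markers.

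**Figure D2:**
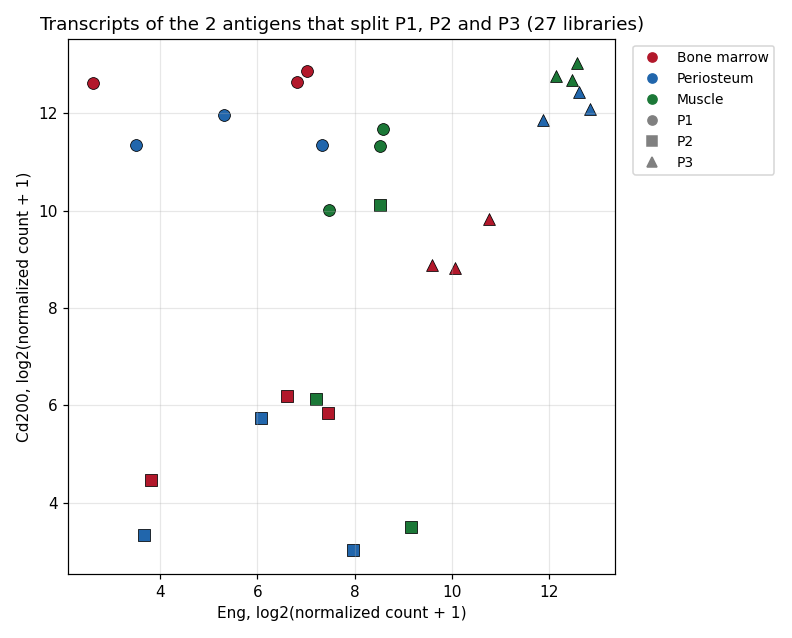
Each of the 27 libraries is placed by its Eng level (x axis) and Cd200 level (y axis), both as log2(normalized count + 1), with colour for the tissue and shape for the subpopulation. P3 libraries lie to the right, P1 libraries lie at the upper left, P2 libraries lie at the lower left, and replicate 2 of muscle P2 lies with the P1 libraries at a Cd200 level of 1107.

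Ptprc (ENSMUSG00000026395, chr1:138062861-138175708, minus strand, protein coding) encodes CD45, by which blood cells were gated out of every group. The gene contains the shorter A130071D04Rik entry, with which it could share reads. Bone marrow libraries held 61.8, 252 and 204 in P1, 312, 690.2 and 829 in P2 and 308, 66.5 and 321 in P3. Periosteum held 0, 9.85 and 2.52 in P1, 18.5, 32 and 184 in P2 and 4.2, 2.8 and 19.7 in P3. Muscle held 14.7, 14.8 and 5.69 in P1, 118, 25.6 and 100.03 in P2 and 26.1, 35.7 and 15.5 in P3. The transcript was above 0 in 26 of the 27 libraries under a gate without CD45, and the 3 bone marrow groups had the highest means, each overlapping the next.

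Bone marrow exceeded muscle and periosteum in 5 of the 6 comparisons of one subpopulation between them. In P1, Ptprc was lower in muscle (log2 fold change -3.65 ± 1.09 (SE), adjusted p = 0.0342) and in periosteum (log2 fold change -5.46 ± 1.09 (SE), adjusted p = 0.00288), in P2 likewise in muscle (log2 fold change -3.04 ± 1.09 (SE), adjusted p = 0.028) and periosteum (log2 fold change -3.52 ± 1.09 (SE), adjusted p = 0.0225), and in P3 in periosteum (log2 fold change -4.67 ± 1.09 (SE), adjusted p = 0.00887). Muscle P3 did not pass (log2 fold change -2.89 ± 1.09 (SE), adjusted p = 0.0924). The call for P1 of periosteum stayed without any single library, and the other bone marrow calls did not. That for muscle P1 ended without any 1 of its libraries or replicate 2 or 3 of bone marrow P1 (adjusted p up to 0.151), and that for muscle P2 without its replicate 2 or bone marrow P2 replicate 2 or 3 (up to 0.131). For periosteum P2 it ended without its replicate 1 or 2 or bone marrow P2 replicate 2 or 3 (up to 0.0859), and for periosteum P3 without bone marrow P3 replicate 3 (up to 0.054). Periosteum P1 was below P2 (log2 fold change -3.87 ± 1.09 (SE), adjusted p = 0.0145), until replicate 1 of P1 or replicate 3 of P2 was left out (up to 0.0791). The 4 calls of Ptprc that involve periosteum were lost with the 2 groups fitted alone, and those of muscle P1, muscle P2 and periosteum P2 against bone marrow with a pseudocount of 0.1. For Ptprc, the fold of 6 called differences moved by over 1.5 times when 1 library was left out, given here as log2 fold changes. Periosteum P1 against P2 had -4.54 without periosteum P2 replicate 1, -2.91 without periosteum P2 replicate 3, -2.995 without periosteum P1 replicate 1 and -4.71 without periosteum P1 replicate 2, while muscle P1 against bone marrow P1 had -4.27 without bone marrow P1 replicate 1. Periosteum P1 against bone marrow P1 had -6.08 without bone marrow P1 replicate 1, -4.58 without periosteum P1 replicate 1 and -6.30 without periosteum P1 replicate 2, while muscle P2 against bone marrow P2 had -2.36 without muscle P2 replicate 2. Periosteum P2 against bone marrow P2 had -2.85 without periosteum P2 replicate 1 and -4.47 without periosteum P2 replicate 3, while periosteum P3 against bone marrow P3 had -5.41 without bone marrow P3 replicate 2 and -5.41 without periosteum P3 replicate 3.

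The 12 leukocyte genes of a list without Ptprc, such as Lyz2 and S100a8, summed to 9348 to 31846 in bone marrow P1, 14364 to 83701 in P2 and 9696 to 20224 in P3. In muscle the sum over the 9 libraries ran from 325 to 915, and in periosteum from 182 in a P1 library to 53804 in replicate 2 of P2. Replicate 2 of periosteum P2 was thus above 7 of the 9 bone marrow libraries, and the periosteum library with the highest Ptprc was another, replicate 3 of P2. In each periosteum group 2 of the 12 genes were at 0 in every library, as was 1 gene in muscle P1. The part of leukocyte RNA in the Ptprc values was not tested. Lymphocyte genes, 8 in number, summed to at most 177 in a library outside bone marrow P2 and P3. The genes whose log2 levels followed Ptprc most closely over the 27 libraries were Ly6c2 (r = 0.84), Fpr2 (r = 0.83) and Ncaph2 (r = 0.83).

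Ly6a (ENSMUSG00000075602, chr15:74994877-74998031, minus strand, protein coding) encodes Sca-1, a GPI-anchored protein of the Ly6 family, whose members resemble one another. It passed in each of the 6 comparisons of muscle or periosteum with bone marrow. Bone marrow libraries held 27.6, 19.9 and 21.8 in P1, 14.3, 18.3 and 31.5 in P2 and 854, 372 and 365 in P3. Muscle held 17834, 17672 and 12025 in P1, 10683, 7811 and 13364 in P2 and 25405, 20247 and 23387 in P3. Periosteum held 11611, 3983 and 4249 in P1, 22832, 2274 and 3276 in P2 and 14252, 12787 and 9417 in P3. The 9 bone marrow libraries lay below the 18 others, and replicate 1 of periosteum P2 stood far above its 2 companions.

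In P1 cells, Ly6a was 653-fold higher in muscle than in bone marrow (log2 fold change 9.35 ± 0.58 (SE), adjusted p = 2.87e-10) and 243-fold higher in periosteum (log2 fold change 7.93 ± 0.58 (SE), adjusted p = 6.57e-09). In P2 the differences were 488-fold for muscle (log2 fold change 8.93 ± 0.58 (SE), adjusted p = 7.78e-11) and 261-fold for periosteum (log2 fold change 8.03 ± 0.58 (SE), adjusted p = 6.91e-10). They were smaller in P3, at 46.9-fold (log2 fold change 5.55 ± 0.58 (SE), adjusted p = 4.55e-07) and 24.5-fold (log2 fold change 4.62 ± 0.58 (SE), adjusted p = 1.27e-05), and bone marrow P3 was itself above bone marrow P1 by 20.4-fold (log2 fold change -4.35 ± 0.58 (SE), adjusted p = 2.2e-05 for P1 against P3) and above P2 by 23-fold (log2 fold change -4.52 ± 0.58 (SE), adjusted p = 8.63e-06 for P2 against P3). No pair of subpopulations passed in periosteum or muscle, and the interaction of tissue and subpopulation did (adjusted p = 0.00356). These 8 calls stayed under each alternative setting and without any single library. Muscle P1 did not pass against periosteum P1 (log2 fold change 1.42 ± 0.58 (SE), adjusted p = 0.184), although its 3 libraries were above the 3 of periosteum. For Ly6a, the fold of 1 called difference moved by over 1.5 times when 1 library was left out, given here as log2 fold changes. Periosteum P2 against bone marrow P2 had 7.004 without periosteum P2 replicate 1 and 8.67 without periosteum P2 replicate 2.

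The genes closest to Ly6a over the 27 libraries were Ly6c1 (r = 0.99), Lims2 (r = 0.95) and Cav1 (r = 0.94), the first of them another member of its family. Ly6c1 stood at 26.2, 10.4 and 10.4 in bone marrow P1 and at 33878, 22829 and 30512 in muscle P3, its lowest and highest groups by mean. Reads that fit more than one Ly6 gene could be split between them, and the handling of such reads is not given in the sources used here. Ly6a transcripts were high both in muscle P3, with the highest endothelial sums, and in muscle P2, where the 10 endothelial genes summed to 3272 to 8383.

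Thy1 (ENSMUSG00000032011, chr9:44043384-44048579, plus strand, protein coding) encodes CD90, a GPI-anchored glycoprotein of T cells, neurons and fibroblasts that also marks restricted skeletal progenitors. It was nearly absent from the bone marrow libraries, with 1.68, 0 and 0 in P1, 8.91, 0 and 0 in P2 and 2.12, 0 and 0 in P3. In muscle it stood at 285, 366 and 157 in P1, 99.4, 134 and 122 in P2 and 84.7, 98.1 and 83 in P3. Periosteum held 331, 50.5 and 238 in P1, 216, 0 and 119.9 in P2 and 91.8, 4.36 and 75.6 in P3. Every muscle library was above every bone marrow library, while replicate 2 of periosteum P2 and of periosteum P3 lay in the bone marrow range.

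Thy1 passed in muscle against bone marrow in each subpopulation (log2 fold change 7.52 ± 1.49 (SE), adjusted p = 0.0014 in P1; log2 fold change 5.79 ± 1.49 (SE), adjusted p = 0.0037 in P2; log2 fold change 5.93 ± 1.49 (SE), adjusted p = 0.00944 in P3) and in periosteum P1 against bone marrow P1 (log2 fold change 6.85 ± 1.49 (SE), adjusted p = 0.00675). These calls stayed under each alternative setting and each omission of a library, but the size of a log2 fold change against the bone marrow groups, each with 2 of 3 libraries at 0, depends on the pseudocount. Periosteum missed the threshold in P2 (log2 fold change 3.79 ± 1.49 (SE), adjusted p = 0.0737) and P3 (log2 fold change 4.53 ± 1.49 (SE), adjusted p = 0.0681). No pair of subpopulations passed in any tissue. Each group overlapped the next in order of mean level, from muscle P1 and periosteum P1 at the top to bone marrow P1 at the bottom. Over the 27 libraries the closest genes were Dpt (r = 0.92), Clec3b (r = 0.91) and Mrgprf (r = 0.90), among which Dpt and Clec3b encode extracellular proteins of fibroblasts. For Thy1, the fold of 2 called differences moved by over 1.5 times when 1 library was left out, given here as log2 fold changes. Periosteum P1 against bone marrow P1 had 7.66 without periosteum P1 replicate 2, while muscle P2 against bone marrow P2 had 6.89 without bone marrow P2 replicate 1.

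Pdpn (ENSMUSG00000028583, chr4:143267431-143299564, minus strand, protein coding) encodes podoplanin, a mucin-like glycoprotein of lymphatic endothelium, osteocytes and stromal cells that binds the platelet receptor CLEC-2. The table lists the gene a second time under another identifier with equal values in 27 of 27 libraries, and the values here are those of the first entry, so they may be part of its reads. Bone marrow held 77.2, 89.9 and 56.9 in P1, 55.5, 4.9 and 77.5 in P2 and 0, 6.68 and 1.64 in P3. Muscle held 784, 957 and 561 in P1, 344, 706 and 303 in P2 and 293, 470.2 and 251 in P3. Periosteum held 807, 268 and 273 in P1, 220.2, 42.4 and 249 in P2 and 338, 178 and 234 in P3. Every muscle and periosteum library was above every bone marrow library, except replicate 2 of periosteum P2, which lay in the range of bone marrow P2, and bone marrow P3 was near 0.

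In bone marrow, P1 was 27.3-fold higher than P3 (log2 fold change 4.77 ± 0.93 (SE), adjusted p = 0.00159) without overlap. P2 was also higher than P3 (log2 fold change 3.44 ± 0.93 (SE), adjusted p = 0.0112), with overlap, and this call ended without replicate 1 or 3 of P2 or replicate 1 of P3 (adjusted p up to 0.086), as it did with equal totals, quantile normalization or the 2 groups alone. Among the tissue comparisons of Pdpn, the largest differences were those of P3, with muscle 119.8-fold higher than bone marrow (log2 fold change 6.90 ± 0.93 (SE), adjusted p = 1.47e-05) and periosteum 88.9-fold higher (log2 fold change 6.47 ± 0.93 (SE), adjusted p = 6.48e-05), both under each alternative and omission. Muscle exceeded bone marrow in P2 (log2 fold change 3.82 ± 0.93 (SE), adjusted p = 0.00233) and in P1 (log2 fold change 3.33 ± 0.93 (SE), adjusted p = 0.0224), the latter not without replicate 1 or 2 of muscle P1 or any 1 library of bone marrow P1 (adjusted p up to 0.0927) or with a pseudocount of 0.1. Periosteum missed the threshold in P1 (log2 fold change 2.39 ± 0.93 (SE), adjusted p = 0.153) and P2 (log2 fold change 2.17 ± 0.93 (SE), adjusted p = 0.0994). The 4 lymphatic endothelial genes, led by Ccl21a, summed to 4693 to 7199 in muscle P3, 2469 to 7885 in periosteum P3 and 303 to 2136 in bone marrow P3. In muscle P1, where Pdpn had its highest mean, they summed to 419 to 600.2. The part of lymphatic endothelial RNA in the Pdpn values was not tested. The closest genes over 27 libraries were Pcolce2 (r = 0.91), Dpt (r = 0.88) and Ackr3 (r = 0.88). For Pdpn, the fold of 5 called differences moved by over 1.5 times when 1 library was left out, given here as log2 fold changes. Bone marrow P1 against P3 had 4.05 without bone marrow P3 replicate 1 and 5.52 without bone marrow P3 replicate 2, while bone marrow P2 against P3 had 4.61 without bone marrow P2 replicate 2, 2.74 without bone marrow P2 replicate 3, 2.72 without bone marrow P3 replicate 1 and 4.19 without bone marrow P3 replicate 2. Muscle P2 against bone marrow P2 had 2.66 without bone marrow P2 replicate 2 and 4.52 without bone marrow P2 replicate 3, while muscle P3 against bone marrow P3 had 6.18 without bone marrow P3 replicate 1 and 7.65 without bone marrow P3 replicate 2. Periosteum P3 against bone marrow P3 had 5.75 without bone marrow P3 replicate 1 and 7.22 without bone marrow P3 replicate 2.

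Enpep (ENSMUSG00000028024, chr3:129269175-129332720, minus strand, protein coding) encodes glutamyl aminopeptidase, the 6C3 antigen, which cleaves angiotensin II and is found on pericytes and stromal cells. The pseudogene Gm42628 lies within it. Muscle held 869, 389 and 407 in P1, 380.1, 164 and 277 in P2 and 559, 871 and 719.8 in P3. Bone marrow held 4.1, 12.8 and 60.6 in P1, 14.4, 14 and 63.2 in P2 and 162, 54.2 and 58.4 in P3. Periosteum held 0.556, 224 and 96.8 in P1, 2.69, 0 and 0 in P2 and 144, 1.46 and 194 in P3. The 3 muscle groups had the highest means, and in periosteum replicate 1 of P1 and replicate 2 of P3 were near 0 while their companions were not.

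Muscle P2 was above periosteum P2 (log2 fold change 7.39 ± 1.54 (SE), adjusted p = 0.000852), a call that stayed under each alternative and omission. Muscle P1 was above bone marrow P1 (log2 fold change 4.99 ± 1.54 (SE), adjusted p = 0.0416), but 10 of the 27 libraries, left out singly, each ended that call (adjusted p up to 0.191), among them the 3 of muscle P1 and replicates 1 and 2 of bone marrow P1. Periosteum P2 was below P1 (log2 fold change 4.39 ± 1.54 (SE), adjusted p = 0.0455 for P1 against P2) and below P3 (log2 fold change -4.73 ± 1.54 (SE), adjusted p = 0.0352 for P2 against P3), both with overlap. The first ended with 19 of the 27 libraries left out singly (adjusted p up to 0.209), among them replicates 2 and 3 of P1 and of P2, and the second without replicate 2 or 3 of P2 or replicate 1 or 3 of P3 (up to 0.142). These 2 calls were also lost with a pseudocount of 5, without a filter on low values and with the 2 groups alone, and that of muscle P1 with a pseudocount of 0.1 and without the filter. Muscle P3 did not pass against periosteum P3 (log2 fold change 4.10 ± 1.54 (SE), adjusted p = 0.138), nor did P2 of muscle (log2 fold change 3.40 ± 1.54 (SE), adjusted p = 0.0786) or of periosteum (log2 fold change -3.99 ± 1.54 (SE), adjusted p = 0.0669) against bone marrow. The 9 mural genes, which mark pericytes and smooth muscle, summed to 29566 to 59537 in muscle P1, 56621 to 136390 in P2 and 17075 to 22063 in P3, and to between 269 and 6896 in the libraries of the other 2 tissues. Gene by gene, muscle P2 was not the highest. In P1 against P2, 4 of the 9 were higher and 0 lower (median log2 fold change 4.20), where 8.21% of all genes were called. In P2 against P3, 1 was higher and 4 lower (median -3.99), where 11.2% of all genes were called. The part of mural RNA in the Enpep values was not tested. The genes closest to Enpep were Ccl27a (r = 0.86), Nmb (r = 0.85) and Birc3 (r = 0.85). For Enpep, the fold of 4 called differences moved by over 1.5 times when 1 library was left out, given here as log2 fold changes. Periosteum P1 against P2 had 5.02 without periosteum P2 replicate 1, 6.58 without periosteum P1 replicate 1, 2.996 without periosteum P1 replicate 2 and 3.60 without periosteum P1 replicate 3, while periosteum P2 against P3 had -5.36 without periosteum P2 replicate 1, -3.83 without periosteum P3 replicate 1, -6.77 without periosteum P3 replicate 2 and -3.61 without periosteum P3 replicate 3. Muscle P1 against bone marrow P1 had 4.15 without bone marrow P1 replicate 1 and 5.95 without bone marrow P1 replicate 3, while muscle P2 against periosteum P2 had 8.02 without periosteum P2 replicate 1.

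Nt5e (ENSMUSG00000032420, chr9:88327197-88372092, plus strand, protein coding) encodes CD73, the ectoenzyme that turns extracellular AMP into adenosine and a standard antigen of cultured mesenchymal stromal cells. Its highest means were those of periosteum P2 and P1, with 1910.2, 1542 and 1869 in P1, 1022, 5663 and 3280.3 in P2 and 648, 11.7 and 1145 in P3. Muscle held 667, 940.4 and 909.7 in P1, 229, 87 and 61 in P2 and 452, 430.3 and 311 in P3. Bone marrow held 122, 287 and 145 in P1, 29.9, 15.4 and 136 in P2 and 138, 36 and 61.7 in P3. Each periosteum P1 and P2 library was above every library of bone marrow and muscle, and replicate 2 of periosteum P3 was below every other library of the 27.

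Periosteum P2 was 65-fold above bone marrow P2 (log2 fold change 6.02 ± 1.12 (SE), adjusted p = 0.000367), and muscle P2 was 24.8-fold below periosteum P2 (log2 fold change -4.63 ± 1.12 (SE), adjusted p = 0.0032), with both calls kept under each alternative and omission. Prrx1 stood at 2377, 64 and 301.5 in replicates 1, 2 and 3 of periosteum P2. Replicate 2, with the highest Nt5e, had the leukocyte sum of 53804, and erythroid genes held 33.7% of the counts in periosteum P2. The part of blood cell RNA in the Nt5e values was not tested. Periosteum P2 also exceeded periosteum P3 (log2 fold change 3.66 ± 1.12 (SE), adjusted p = 0.0264), and this call ended without replicate 2 or 3 of P2 or replicate 2 of P3 (adjusted p up to 0.189), with equal totals, with quantile normalization or with the 2 groups alone. Other pairs whose libraries did not overlap missed the threshold, among them periosteum P1 against bone marrow P1 (log2 fold change 3.35 ± 1.12 (SE), adjusted p = 0.0854), periosteum P1 against P3 (log2 fold change 3.06 ± 1.12 (SE), adjusted p = 0.132) and muscle P1 against P2 (log2 fold change 2.95 ± 1.12 (SE), adjusted p = 0.111). Over the 27 libraries Nt5e was most like Capn6 (r = 0.90), Pgam1 (r = 0.86) and Arsi (r = 0.84). For Nt5e, the fold of 3 called differences moved by over 1.5 times when 1 library was left out, given here as log2 fold changes. Periosteum P2 against P3 had 4.35 without periosteum P2 replicate 1, 4.47 without periosteum P3 replicate 1, 1.63 without periosteum P3 replicate 2 and 4.88 without periosteum P3 replicate 3, while periosteum P2 against bone marrow P2 had 5.36 without bone marrow P2 replicate 2, 6.89 without bone marrow P2 replicate 3 and 6.71 without periosteum P2 replicate 1. Muscle P2 against periosteum P2 had -5.32 without periosteum P2 replicate 1.

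Mcam (ENSMUSG00000032135, chr9:44134469-44142727, plus strand, protein coding) encodes CD146, an adhesion molecule of endothelium, pericytes and smooth muscle that also marks human marrow stromal cells. Its start overlaps the antisense gene Gm10687, whose reads cannot be told apart without strand. It was listed at 0 in the 3 bone marrow P1 libraries, and stood at 24.2, 85.9 and 135 in P2 and 457, 107 and 274 in P3. Periosteum held 1.76, 44.9 and 196 in P1, 1.52, 1.47 and 1.09 in P2 and 2519.9, 1200.3 and 1131 in P3. Muscle held 1029, 2016 and 1775 in P1, 18.3, 133 and 74.6 in P2 and 1821, 1298 and 2026 in P3. P3 was the highest subpopulation by mean in each tissue, and muscle P1 overlapped muscle P3, while P1 of bone marrow and of periosteum lay below their P3 without overlap.

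Within bone marrow, P1 differed from P2 (adjusted p = 0.000199) and from P3 (adjusted p = 3.51e-05), and no fold is given against a group at 0. In periosteum, P3 exceeded P1 by 51.6-fold (log2 fold change -5.69 ± 1.10 (SE), adjusted p = 0.0027 for P1 against P3) and P2 by 642-fold (log2 fold change -9.33 ± 1.10 (SE), adjusted p = 3.45e-06 for P2 against P3), and P1 exceeded P2 (log2 fold change 3.64 ± 1.10 (SE), adjusted p = 0.0225) until replicate 2 or 3 of P1 was left out (adjusted p up to 0.153). In muscle, P2 was below P1 (log2 fold change 4.73 ± 1.10 (SE), adjusted p = 0.00638 for P1 against P2) and below P3 (log2 fold change -4.86 ± 1.10 (SE), adjusted p = 0.00387 for P2 against P3). P1 and P3 of muscle overlapped, with an interval for the log2 difference of -2.40 to 2.15. The interaction passed (adjusted p = 4.46e-05), so the spacing of the subpopulations was not the same in the 3 tissues. Comparisons with bone marrow P1, where Mcam is at 0, are left out of the next count. For Mcam, the fold of 4 called differences within tissues moved by over 1.5 times when 1 library was left out, given here as log2 fold changes. Periosteum P1 against P2 had 5.34 without periosteum P1 replicate 1 and 2.26 without periosteum P1 replicate 3, while periosteum P1 against P3 had -3.99 without periosteum P1 replicate 1 and -7.07 without periosteum P1 replicate 3. Muscle P1 against P2 had 3.94 without muscle P2 replicate 1 and 5.34 without muscle P2 replicate 2, while muscle P2 against P3 had -4.07 without muscle P2 replicate 1 and -5.46 without muscle P2 replicate 2.

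Between tissues, Mcam in muscle P1 was 52.9-fold higher than in periosteum P1 (log2 fold change 5.72 ± 1.10 (SE), adjusted p = 0.00243), which made it the single marker that passed in that comparison. Both differed from bone marrow P1 (adjusted p = 5.02e-07 for muscle; adjusted p = 0.00866 for periosteum, up to 0.0521 without replicate 3 of periosteum P1). Among P2 cells periosteum was the lowest, below bone marrow (log2 fold change -4.83 ± 1.10 (SE), adjusted p = 0.00255) and below muscle (log2 fold change 4.63 ± 1.10 (SE), adjusted p = 0.00281 for muscle against periosteum). The 7 Mcam calls that involve periosteum were lost with the 2 groups fitted alone, that of P2 against bone marrow also with quantile normalization, and that of P1 against bone marrow also with a pseudocount of 5. Among P3 cells no pair passed, with log2 fold change 2.82 ± 1.10 (SE), adjusted p = 0.108 for muscle and log2 fold change 2.66 ± 1.10 (SE), adjusted p = 0.152 for periosteum against bone marrow, and log2 fold change 0.16 ± 1.10 (SE), adjusted p = 0.966 for muscle against periosteum. The genes closest to Mcam were Cdh5 (r = 0.89), Bcam (r = 0.87) and Ecscr (r = 0.86), of which Cdh5 and Ecscr are endothelial. Comparisons with bone marrow P1, where Mcam is at 0, are again left out of the count. For Mcam, the fold of 3 called differences between tissues moved by over 1.5 times when 1 library was left out, given here as log2 fold changes. Muscle P1 against periosteum P1 had 4.02 without periosteum P1 replicate 1 and 7.10 without periosteum P1 replicate 3, while periosteum P2 against bone marrow P2 had -5.53 without bone marrow P2 replicate 1. Muscle P2 against periosteum P2 had 5.42 without muscle P2 replicate 1 and 4.02 without muscle P2 replicate 2.

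**Figure D3:**
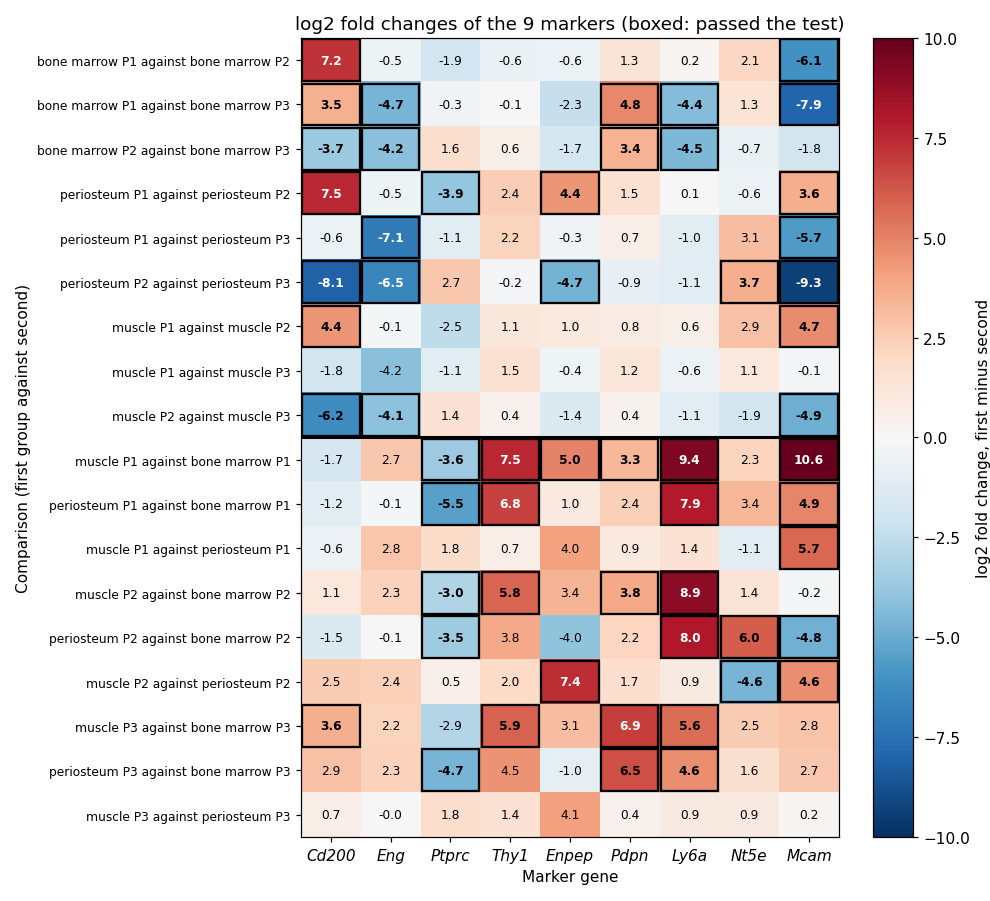
Rows are the 18 comparisons and columns the 9 markers; colour and number give the log2 fold change of the first group against the second, and a box marks a difference that passed the test in limma. The upper 9 rows compare subpopulations within a tissue and the lower 9 compare tissues within a subpopulation, and the Mcam values that involve bone marrow P1, which is at 0, depend on the pseudocount.

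Endothelial transcripts were compared beside Eng and Mcam. The sum of 10 endothelial genes, none of them among the 9 markers, was 37178 to 60941 in muscle P3, 25280 to 47117 in periosteum P3 and 3814 to 17691 in bone marrow P3. In P1 it was 6172 to 15374 in muscle, 316 to 1969 in periosteum and 167 to 248 in bone marrow. In P2 it was 3272 to 8383 in muscle, 534 to 1598 in periosteum and 1206 to 1552 in bone marrow. Between P1 and P2, Mcam passed in each tissue. In muscle and periosteum, where Mcam was higher in P1, 0 of the 10 genes were called, with median log2 fold changes of 0.09 and 0.36. In bone marrow, where Mcam was lower in P1, 6 of the 10 were also lower in P1, with a median of -2.80. There 34.0% of all genes were called in either direction, and Eng was not called. Each of these genes was above 0 in at least 1 library of each group, except Cldn5 in periosteum P2. Kdr, a VEGF receptor, was at 12429, 5900.3 and 8278 in muscle P3 and 16.7, 19.5 and 14 in bone marrow P1, and the adhesion gene Pecam1 at 10537, 6067 and 8460.0 and 136, 75.7 and 74.3 in the same groups. P3 had the highest endothelial sum in each tissue, as it had the highest mean of Eng and Mcam, and muscle P1 had a higher sum than P1 of the other tissues. The genes closest to Eng over the 27 libraries were Podxl (r = 0.91), Cd300lg (r = 0.90) and Gpr4 (r = 0.90), all known from endothelium. Of the 9 mural genes, 4 were higher in P1 than in P2 and 0 lower in muscle (median log2 fold change 4.20). Periosteum also gave 4 higher and 0 lower (median 3.88), and bone marrow 1 higher and 1 lower (median 1.09). In these comparisons 8.21%, 19.1% and 34.0% of all genes were called. The part of endothelial or mural RNA in the Eng, Mcam and Ly6a values was not tested.

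**Figure D4:**
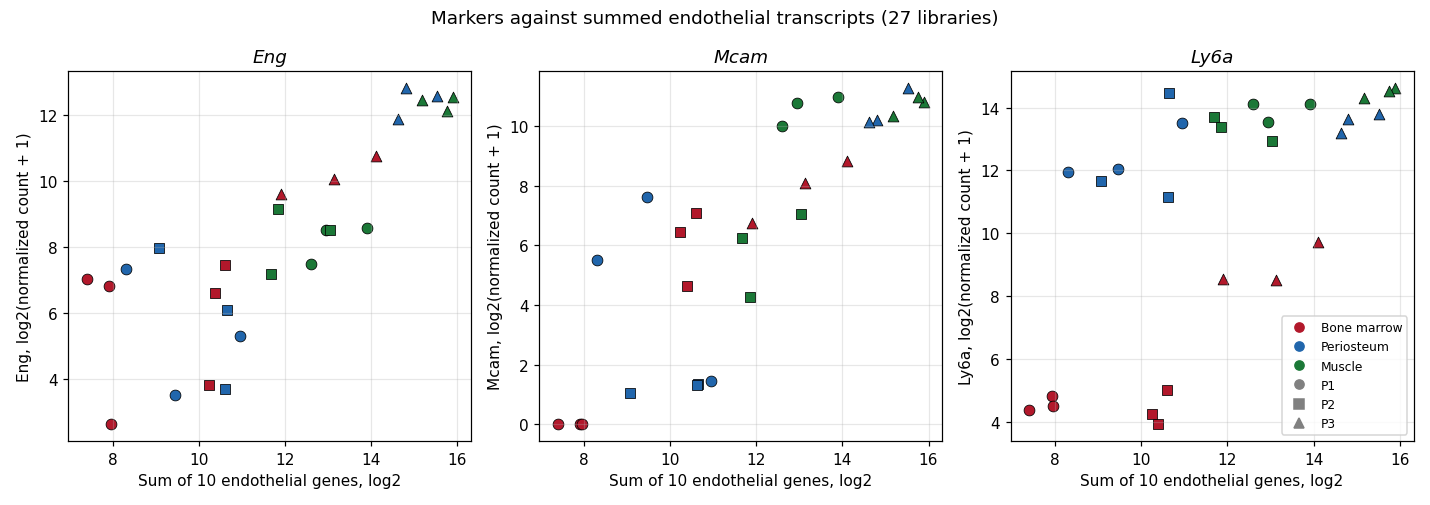
Eng, Mcam and Ly6a (y axes, log2(normalized count + 1)) are plotted against the log2 of the sum of 10 endothelial genes in the 27 libraries, with colour for the tissue and shape for the subpopulation. Eng is highest in the P3 libraries, whose sums reach 60941. Mcam is high in the P3 libraries of muscle and periosteum and also in muscle P1 (1029 to 2016), with sums of 6172 to 15374. Ly6a is also high in muscle and periosteum libraries with lower sums.

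Per kilobase of exon, by which levels of different genes can be set side by side, Ly6a was the highest of the 9 markers in each muscle and periosteum group and in bone marrow P3, at 19098 ± 2157 normalized counts per kilobase in muscle P3 (SD, n = 3) and 13148 ± 2745 in muscle P1. Bone marrow P1 was led by Cd200 instead, at 2025 ± 206, with Pdpn next at 41.1 ± 9.18 and Ly6a at 19.2 ± 3.33. In bone marrow P2 Ptprc stood at 33.3 ± 14.6, Pdpn at 25.3 ± 20.5 and Mcam at 24.4 ± 16.6, which differ by less than their spread. In muscle P1 the next after Ly6a were Cd200 at 689 ± 346, Mcam at 479.7 ± 154 and Pdpn at 422 ± 109. Since Pdpn is taken from 1 of 2 equal entries, its place among the markers is uncertain, and with the entries summed it would be 845 ± 219 in muscle P1 and 50.6 ± 41 in bone marrow P2, above the means of Cd200 and Mcam in the first and of Ptprc in the second. In periosteum P1 they were Cd200 at 923 ± 237, Pdpn at 247 ± 171 and Nt5e at 206 ± 23.5. In periosteum P3 Eng, at 1424 ± 450.3, and Cd200, at 1363 ± 284, followed Ly6a. Exon lengths came from GENCODE M21 and ran from 1.205 kb for Ly6a to 18.3 kb for Ptprc, whose many annotated transcripts lengthen the divisor.

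The markers did not vary as one set. Over the 27 libraries, which share the 9 groups and the scaling, the log2 levels of Thy1 and Ly6a had r = 0.81, those of Thy1 and Pdpn r = 0.80, those of Enpep and Mcam r = 0.70 and those of Eng and Mcam r = 0.69. Ptprc had r = -0.71 with Ly6a and r = -0.65 with Thy1, but r = -0.043 with Enpep and r = -0.28 with Mcam. Cd200 was closest to genes outside the list, namely Pltp (r = 0.93), Hid1 (r = 0.92) and S1pr1 (r = 0.91). These coefficients describe the libraries and carry no test.

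Further antigens and tracing genes of skeletal stem and stromal cells, 20 in number and all of them tested, were compared in the same fit. For muscle P1 against bone marrow P1, 3 were higher and 3 lower, where 8.34% of all genes were called in either direction, with a median log2 fold change of 0.34 against 0.06 for all genes. Cd34, a sialomucin of haematopoietic progenitors, endothelium and fibro-adipogenic cells, was higher in muscle P1 (log2 fold change 8.52 ± 0.56 (SE), adjusted p = 4.27e-10), at 20340, 19284 and 14578 against 35.8, 63.9 and 47.2. So were Acta2, the smooth muscle actin (log2 fold change 12.08 ± 1.18 (SE), adjusted p = 1.77e-07), and Gli1, a Hedgehog effector (log2 fold change 4.75 ± 1.39 (SE), adjusted p = 0.0305). Cxcl12, the chemokine of marrow reticular cells, was lower (log2 fold change -3.90 ± 0.47 (SE), adjusted p = 4.36e-06), as were Lepr, the leptin receptor (log2 fold change -2.63 ± 0.77 (SE), adjusted p = 0.0301), and Grem1, a BMP antagonist (log2 fold change -6.13 ± 1.30 (SE), adjusted p = 0.00257). Bone marrow P1 held 70149, 30282 and 71126 of Cxcl12 and muscle P1 3778, 2918 and 4145.

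Within bone marrow, 10 of these 20 genes were higher in P1 than in P2 and 3 lower, where 34.0% of all genes were called in either direction, with a median of 2.13 against -0.61 for all genes. Those higher included Postn, a matrix protein of periosteum (log2 fold change 8.12 ± 1.23 (SE), adjusted p = 2.34e-05), Ctsk, the cathepsin used to trace periosteal stem cells (log2 fold change 6.97 ± 0.61 (SE), adjusted p = 8.77e-09), and Pdgfra, the PDGF receptor of mesenchymal cells (log2 fold change 4.79 ± 0.47 (SE), adjusted p = 4.38e-08). Cd34 (log2 fold change -3.30 ± 0.56 (SE), adjusted p = 9.94e-05), Ngfr (log2 fold change -3.87 ± 1.01 (SE), adjusted p = 0.00485) and the interferon-induced Mx1 (log2 fold change -3.09 ± 0.89 (SE), adjusted p = 0.00946) were lower. In periosteum 7 were higher in P1 than in P2 and 1 lower, where 19.1% of all genes were called in either direction, with a median of 1.75 against 0 for all genes. In muscle 3 were higher and 0 lower, where 8.21% of all genes were called, with a median of 1.23 against 0.24 for all genes. P2 in bone marrow and periosteum also held the erythroid transcripts given above, and their part in these differences was not tested.

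The receptors, ligands and neighbouring enzymes of the markers made a list of 20 genes, of which 18 were tested. For muscle P1 against bone marrow P1, 4 were higher and 1 lower, where 8.34% of all genes were called, with a median log2 fold change of 1.78 against 0.06 for all genes. On the adenosine pathway of CD73, Entpd1, which makes AMP from ATP and ADP, was higher in muscle P1 (log2 fold change 8.78 ± 1.56 (SE), adjusted p = 0.000466), as was the adenosine receptor gene Adora2b (log2 fold change 7.34 ± 1.31 (SE), adjusted p = 0.000472). Adora2b stood at 381, 776 and 283 in muscle P1 and 0, 0 and 18.7 in bone marrow P1. It passed in limma for muscle against periosteum in P1 (log2 fold change 5.99 ± 1.31 (SE), adjusted p = 0.00728). The same held in P2 (adjusted p = 0.000315) and P3 (adjusted p = 0.00188), where periosteum was listed at 0. Muscle also exceeded bone marrow for Adora2b in P2 (adjusted p = 0.00833) and P3 (adjusted p = 0.00173). Anpep, an aminopeptidase that acts after 6C3 on angiotensin peptides, was higher in muscle than in bone marrow in P1 (log2 fold change 4.51 ± 1.23 (SE), adjusted p = 0.0192), P2 (log2 fold change 3.07 ± 1.23 (SE), adjusted p = 0.0485) and P3 (log2 fold change 5.35 ± 1.23 (SE), adjusted p = 0.00466). Dpp4, a peptidase of adventitial fibroblasts, was higher in muscle P1 (log2 fold change 10.12 ± 1.77 (SE), adjusted p = 0.000394). Clec1b, the gene of the podoplanin receptor CLEC-2, was lower there (log2 fold change -5.21 ± 1.45 (SE), adjusted p = 0.0226).

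For endoglin, Tgfbr3, the betaglycan co-receptor, was higher in bone marrow P1 than in P2 (log2 fold change 3.15 ± 0.76 (SE), adjusted p = 0.00263), and Acvrl1, the ALK1 receptor with which endoglin acts in endothelium, was lower in periosteum P2 than in P3 (log2 fold change -5.21 ± 1.41 (SE), adjusted p = 0.0131). Agtr1a, a receptor for angiotensin II, was lower in P1 than in P2 of periosteum (log2 fold change -5.29 ± 1.42 (SE), adjusted p = 0.0112). Cd200r1, the receptor of CD200, was listed at 0 in the 3 periosteum P3 libraries and stood at 134, 0 and 452 in P2 (adjusted p = 0.0196).

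The other cell type lists also differed between groups. Sums of 10 osteoblast and osteocyte genes were highest in bone marrow P1, at 2779900 to 4855000, and periosteum P1, at 670200 to 1331800, where muscle P1 had 80935 to 141150. Those of 8 fibro-adipogenic and adventitial genes were 154760 to 199170 in muscle P1 and 1490.0 to 1670.1 in bone marrow P2. The 6 satellite cell genes summed to 4984 to 7626 in muscle P1, which overlapped bone marrow P3, with 1944 to 8679, and periosteum P3, with 1684 to 7964. In each of these P3 groups 3 of the 6 were at 0 in every library, against 0 of the 6 in muscle P1. Muscle P1 was above bone marrow P1 for 5 of the 6 and below for 0, with a median log2 fold change of 8.37. In that comparison 8.34% of all genes were called. The 6 Schwann cell genes summed to 2973 to 4202 in muscle P1, 2544 to 4049 in periosteum P1 and 1156 to 4957 in periosteum P2, which overlap. Gene by gene, 3 of these 6 were higher in muscle P1 than in periosteum P1 and 1 lower, with a median log2 fold change of 4.66. There 4.90% of all genes were called. The part of any of these in the marker values was not tested.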

How the data were processed

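RNA-seq of 27 libraries (SMART-Seq v4 and Nextera XT) was analysed from 1 table. The authors ran Trim Galore on the reads, then STAR, then DESeq2; the aligner's version, genome build and strand setting are not given in the sources used here. The deposited values are signal values, normalized counts per gene, and the steps between low values differ from gene to gene, so whole reads were not recovered, read depth is unknown and no counting error is given. An entry named for transgenes, 0.0047% to 0.213% of a library, was left out. Groups came from the labels. log2(value + 1) was fitted with limma 3.58.1 in R 4.3.3 (lmFit, eBayes with a trend, means of 9 groups, Benjamini-Hochberg over genes at 10 or more in 3 or more libraries), for 18 comparisons and a tissue by subpopulation F test. The fit was tested on simulated data. There 200 of 18442 genes had a log2 change of 3 in muscle P1, and group means were otherwise equal. For muscle P1 against P2 the fit recovered 34 of the changed genes and called 2 others. Each real comparison had more called genes, so this share need not carry over. A difference that did not pass may still be present. The 5 housekeeping genes Actb, Eef1a1, Gapdh, Ppia and Rplp0 were above 0 in every library, the lowest value being 2382. Exon lengths and positions came from GENCODE M21 (GRCm38), in which 29811 of the 30153 identifiers were found, and promoters from RefSeq. Figures used Python 3.11.15 and matplotlib 3.10.9.

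The 9 markers and the gene lists were chosen with earlier results of these data known. Named were the 9 markers, called genes of the 2 lists of related genes, the 3 genes with the highest Pearson r over the libraries for each marker, and leading genes of the cell type lists. The examples from the lists were picked from the called genes after their values were seen. Alternatives were pseudocounts of 0.1 and 5, no filter or a mean of at least 50, the replicate block, no trend, equal totals, quantile normalization, 2 groups alone, the adjusted p alone, each library left out and, chosen after seeing the data, Pdpn as the sum of its 2 entries.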

Additional observations from a re-analysis of the deposited data

Results flagged for a closer look

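For 3 of the 9 markers the differences between P1, P2 and P3 were not the same in the 3 tissues by limma's F test of the interaction. That share was near the 25.5% of all genes that passed it, and with equal totals per library 2 markers passed. Mcam passed with an adjusted p of 4.456e-05: muscle P1 (1607 ± 515, mean ± SD, n = 3) overlapped muscle P3 (1715 ± 375), whereas periosteum P1 (81 ± 102) was below periosteum P3 (1617 ± 783) and bone marrow P1 was listed at 0. Ly6a passed with an adjusted p of 0.00356: bone marrow P3 (530.3 ± 281) was above bone marrow P1 (23.1 ± 4.02), while no pair of subpopulations passed in periosteum or muscle. Cd200 passed with an adjusted p of 0.01944: bone marrow P1 (6725 ± 684) was above bone marrow P3 (609.7 ± 256), and muscle P1 (2287 ± 1149.5) had a lower mean than muscle P3 (7270.5 ± 949.8). CD200 was an antigen of the sort. The Cd200 call between bone marrow P1 and P3 was lost without any 1 of 5 libraries and with equal totals per library. Pdpn was just outside (adjusted p = 0.0561).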

How the results depend on the processing

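Of 56 calls, 28 stayed under each alternative and without any single library, and 28 were lost in at least 1. No call changed direction. Of the differences that were not called, Mcam muscle P1 against muscle P3 changed sign, with log2 fold changes from -0.3182 to 0.1667 with 1 library left out and 0.0065 without replicate 3 of muscle P3, as did Mcam muscle P3 against periosteum P3, from -0.0453 to 0.5323, with -0.0024 without replicate 2 of periosteum P3. With 1 library left out in turn, the calls within tissues numbered 23 to 29 (27 in full), those within subpopulations 26 to 35 (29 in full) and the interaction calls 3 to 5 (3 in full). The highest interaction count came without replicate 1 of periosteum P2 and the highest within subpopulations without replicate 2 of periosteum P3. With the 2 groups fitted alone, calls within tissues fell to 17, those within subpopulations rose to 31 and 20 of the 56 calls were lost, where fewer libraries gave the spread. The other settings gave 25 to 31, 25 to 39 and 2 to 4 calls of the 3 kinds, quantile normalization the most. Rescaling to equal totals moved the all-gene median for bone marrow P1 against P3 from 0 to -0.79 (log2), and the Cd200 call of that comparison was lost.

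With the replicate block the counts were 27, 31 and 3, and each of the 56 calls stayed. Libraries with 1 number did not deviate together: for the 36 group pairs the correlation averaged 0.000242, from -0.0592 to 0.0502. Whether a replicate number stands for 1 animal is not stated. The block and this correlation therefore cannot show whether libraries of a shared animal deviate together. Since read depth is unknown, levels near 0, such as Thy1 in bone marrow, cannot be given a counting limit.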
